A study of Bos taurus with 6 samples.

Results

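The bone morphogenetic protein (BMP) genes and their inhibitor of DNA binding (ID) target genes were followed in bovine granulosa cells (GC), the hormone-producing cells that line the ovarian follicle, cultured at normal and at high plating density. The genes are the ligands BMP2, BMP4, BMP6 and BMP7, the receptors BMPR1A, BMPR1B and BMPR2, and the targets ID1, ID2 and ID3, chosen by name. Each is measured by 1 transcript cluster (the unit that the array reports per gene), so that they make up 10 of the 26773 transcript clusters of the deposited table. All 10 were kept and none was removed by a filter on low signals.

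RNA came from 6 cultures of primary GC on Bovine Gene 1.0 ST Arrays, 1 array per culture, with 3 cultures at normal density and 3 at high density. All of them were kept for 9 days in serum-free α-MEM to which FSH, IGF-1 and androstenedione had been added, so initial plating density is the difference between the groups. No culture was exposed to a BMP by design. Per the methods, each GC preparation was pooled from the follicles of many abattoir ovaries of cows whose cycle stage was not defined. The p-values therefore describe the spread between cultures of such pools and not between cows.

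BMPs are secreted dimers of the transforming growth factor beta superfamily. They bring together a type I receptor such as BMPR1A or BMPR1B and a type II receptor such as BMPR2, which phosphorylate SMAD1, SMAD5 and SMAD9, and these enter the nucleus with SMAD4. ID1, ID2 and ID3 are classical genes switched on by this route, and their proteins lack a DNA binding region and hold basic helix-loop-helix (bHLH) factors away from DNA. In the ovary, BMPs from theca cells, GC and the oocyte are known to modulate the response of GC to FSH and to restrain progesterone synthesis.

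Values are log2 signals, and a change is the mean at high density minus the mean at normal density on that scale, tested with limma over all transcript clusters. A transcript cluster is termed called when its fold change (FC) exceeds 1.5 in size and its p-value and false discovery rate (FDR, the Benjamini-Hochberg adjusted p) are below 0.05. A level of 4.62, the 95th percentile of the reporter control signals, serves as the background level. The microarray signal of one transcript cluster cannot be set against that of another, so only changes are compared between genes.

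Of the BMP and ID genes, 4 were called. BMP4 and BMP6 rose at high density, while ID1 and ID3 fell. Of all transcript clusters 7.49% were called, 3.97% with a rise and 3.51% with a fall. BMP2 and ID2 were higher at high density and passed the FDR threshold but not the FC threshold, as 19.1% of all transcript clusters passed the FDR threshold at any FC, 8.64% with a higher and 10.4% with a lower signal. BMP7 and the receptors passed neither in limma, where BMPR1A and BMPR2 had unadjusted p-values of 0.02. The methods' t-test called none of them, since BMPR1A and BMPR2 passed its FDR threshold but not the FC threshold. The groups did not overlap, with all 3 high density signals above or all below the 3 normal density signals, for 9 of the 10 genes, BMP7 being the exception, and for 37.3% of all transcript clusters. As these are RNA signals of whole cultures, fewer cells that express a gene and less RNA of it per cell cannot be told apart.

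**Figure D1:**
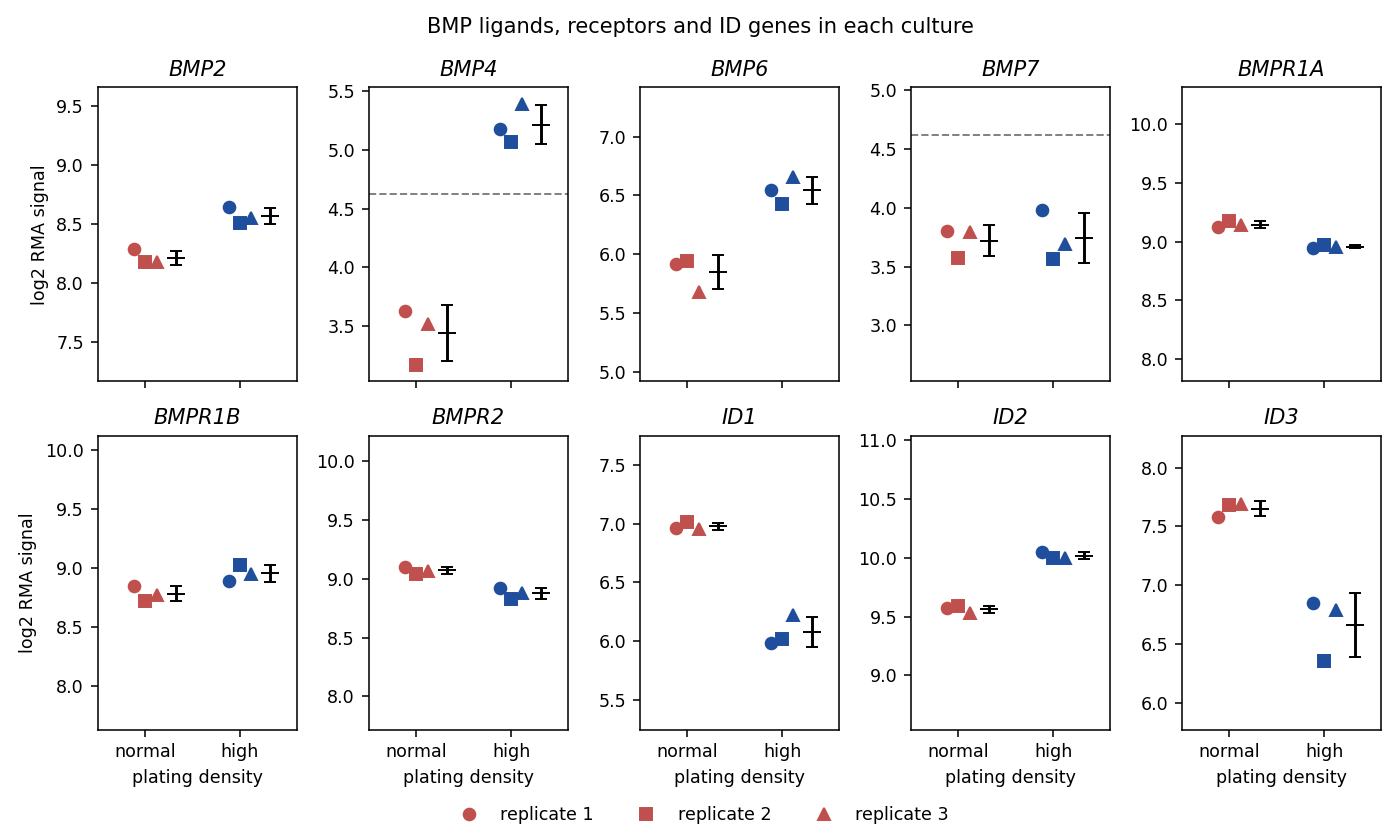
Log2 RMA signals of the BMP ligands, receptors and ID genes in each culture at normal (red) and high (blue) plating density, 1 panel per gene, with the marker shape giving the replicate number and the black bar the mean ± SD (n = 3). Every panel spans the same log2 range, and the dashed line is the background level of 4.62. BMP4 crosses this line, BMP7 stays below it, and ID1 and ID3 move down while ID2 moves up.

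Among the ligands, BMP4 had the largest change. BMP4 (transcript cluster 12693777) is a ligand known in the ovary as a product of theca cells. Its signals were 3.63, 3.17 and 3.52 in the normal density cultures 1 to 3 and 5.18, 5.07 and 5.39 in the high density cultures 1 to 3. All normal density signals were below the background level and all high density signals were above it. The means were 3.44 ± 0.24 and 5.21 ± 0.16 (SD, n = 3), and the log2 fold change was 1.77 (SE 0.14, adjusted p = 0.000206 by limma), the 144th largest change in size in the table. Because the normal density mean lay below the background level, the size of this rise, a 3.42-fold difference as measured, is limited by that level.

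BMP6 (transcript cluster 12806832) is a ligand that GC themselves are known to express. Its signals were 5.91, 5.94 and 5.68 at normal density and 6.55, 6.42 and 6.66 at high density, so every high density culture exceeded every normal density culture. The log2 fold change was 0.70 (SE 0.10, 95% interval 0.46 to 0.93, adjusted p = 0.00303 by limma), an FC of 1.62 that lies close to the threshold. The methods' t-test called the rise (adjusted p = 0.0312). Its version for unequal variances gave an adjusted p of 0.0556 and limma's treat one of 1, and the rise was then not called.

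BMP2 (transcript cluster 12716976), a close relative of BMP4 that binds the same type I receptors, had signals of 8.28, 8.18 and 8.18 at normal density and 8.65, 8.51 and 8.55 at high density. The groups did not overlap, but the log2 fold change of 0.36 (SE 0.07, adjusted p = 0.0143 by limma) was an FC of 1.28 and BMP2 was not called. The upper end of its 95% interval, 0.53, is below the FC threshold of 0.585 on the log2 scale.

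BMP7 (transcript cluster 12716781), another ligand known from theca cells, had signals of 3.80, 3.57 and 3.79 at normal density and 3.98, 3.57 and 3.69 at high density. The groups overlapped and all signals were below the background level. High and normal density differed by a log2 fold change of 0.03 (95% interval −0.26 to 0.31, adjusted p = 0.914 by limma), the sign changed with the scaling, and no difference was detectable at these signals.

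Within an array, the log2 difference between a pair of genes shows whether their signals changed unequally. Where a gene lies below the background level, as BMP4 at normal density and BMP7 at both, this difference is limited by that level. The difference BMP4 minus BMP6 was between −2.77 and −2.16 on the normal density arrays and between −1.37 and −1.27 on the high density arrays. That of BMP2 minus BMP6 was between 2.24 and 2.497 at normal density and between 1.89 and 2.10 at high density. As measured, the log2 fold change of BMP4 exceeded that of BMP6 by 1.08 and that of BMP2 was smaller by 0.34, without overlap of the arrays in either case. Over the ligands, receptors and ID genes, 12 pairs of the same role were compared, and in 10 of them the groups did not overlap (two-sided exact permutation test over the cultures, p = 0.1 for each, the smallest p that 3 cultures against 3 allow, and 0.12 after Benjamini-Hochberg adjustment). Of these 10 pairs, 5 contain BMP4 or BMP7 and so have a gene below the background level at normal density. The share of such pairs over all transcript clusters was not computed, so the count is not read as particular to these genes.

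All receptors gave signals well above the background level at both densities, and differed little between densities. BMPR1A (transcript cluster 12825944), a type I receptor that is widely expressed, had signals of 9.12, 9.18 and 9.14 at normal density and 8.95, 8.97 and 8.95 at high density. The groups were separate, with a log2 fold change of −0.19 (SE 0.06, 95% interval −0.33 to −0.04, adjusted p = 0.0835 by limma). BMPR2 (12775041), the type II receptor, had signals of 9.10, 9.04 and 9.07 at normal density and 8.92, 8.83 and 8.88 at high density, again without overlap. The log2 fold change was −0.20 (SE 0.07, 95% interval −0.35 to −0.04, adjusted p = 0.0821 by limma).

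The signals of both were therefore lower in every high density culture, by less than the FC threshold, which lies outside their 95% intervals. Whether they passed the FDR threshold depended on the setting, and each passed it in 5 of the 16 alternative fits. Neither passed it with the replicate number as a block or with any culture left out. Under the methods' t-test the adjusted p was 0.013 for BMPR1A and 0.0326 for BMPR2. With a variance trend and robust estimation in limma, it was 0.0214 for BMPR1A and 0.0242 for BMPR2. With the limma fit and adjustment restricted to transcript clusters above the background level at either density, it was 0.0316 and 0.0319.

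BMPR1B (transcript cluster 12873401), the type I receptor that is tied to ovulation rate in sheep, had signals of 8.85, 8.72 and 8.77 at normal density and 8.88, 9.03 and 8.95 at high density. These lay above the normal density signals by a narrow margin, and once the arrays were set to a common median the groups overlapped. The log2 fold change was 0.17 (SE 0.07, 95% interval −0.000417 to 0.35, adjusted p = 0.156 by limma).

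On each array the type I receptors can be set against each other. BMPR1A minus BMPR1B was between 0.27 and 0.46 in the normal density cultures and between −0.06 and 0.06 in the high density cultures, a shift of −0.36 on the log2 scale. BMPR1B minus BMPR2 was between −0.32 and −0.25 at normal density and between −0.03 and 0.20 at high density, a shift of 0.37. For BMPR1A minus BMPR2 the groups overlapped, with a shift of 0.01 (two-sided exact permutation test, p = 0.7), so that these receptors did not shift against each other beyond the spread between cultures.

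**Figure D2:**
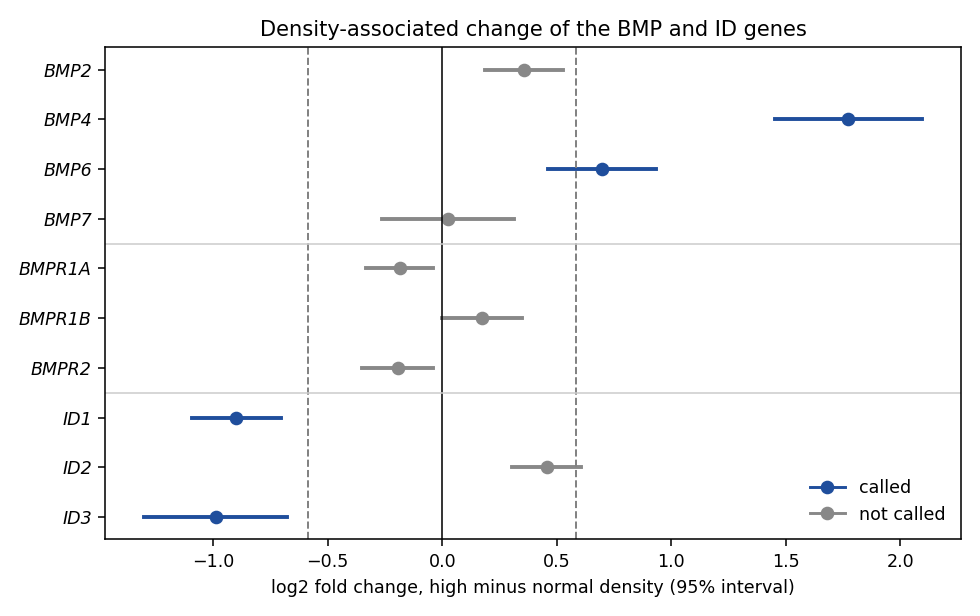
Log2 fold changes, high minus normal density, of the BMP ligands, receptors and ID genes, with bars for limma's 95% intervals. Blue marks called genes, gray lines separate the roles and dashed lines mark the FC threshold of 1.5 in both directions. BMP4 and BMP6 lie to the right, ID1 and ID3 to the left, and the intervals of the receptors stay inside the dashed lines.

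Among the ID genes, ID1 and ID3 were lower and ID2 was higher at high density. ID1 (transcript cluster 12714001), a direct target of BMP-activated SMADs, had signals of 6.96, 7.01 and 6.95 at normal density and 5.99, 6.02 and 6.22 at high density. The normal density cultures lay within 0.06 of each other, and every high density culture was lower by more than this. The means were 6.98 ± 0.03 and 6.08 ± 0.13 (SD, n = 3), which is a change of −0.90 on the log2 scale (SE 0.08, adjusted p = 0.000455 by limma) or 1.87-fold.

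ID3 (transcript cluster 12778449), which shares with ID1 its role as an inhibitor of bHLH factors, had signals of 7.58, 7.69 and 7.69 at normal density and 6.85, 6.35 and 6.79 at high density. High density replicate 2 was the lowest and lay apart from the other two. The log2 fold change was −0.99 (SE 0.13, adjusted p = 0.00225 by limma), or 1.99-fold, and −0.84 without that culture, when ID3 was still called. The methods' t-test called the falls of ID1 and ID3 (adjusted p = 0.00989 and 0.0346). They were not called by its version for unequal variances, an addition to the methods (adjusted p = 0.0648 and 0.129). Nor were they called by limma's treat, which tests against the FC threshold (adjusted p = 0.129 and 0.295). Among all transcript clusters the changes of ID1 and ID3 were the 815th and the 673rd in size.

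ID2 (transcript cluster 12704320), the ID protein known also to bind retinoblastoma proteins, had signals of 9.57, 9.59 and 9.53 at normal density and 10.05, 10.001 and 9.996 at high density. The groups were far apart for their spread, with means of 9.56 ± 0.03 and 10.02 ± 0.03 (SD, n = 3). The log2 fold change of 0.46 (SE 0.06, 95% interval 0.30 to 0.61, adjusted p = 0.00285 by limma) was an FC of 1.37, below the FC threshold.

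**Figure D3:**
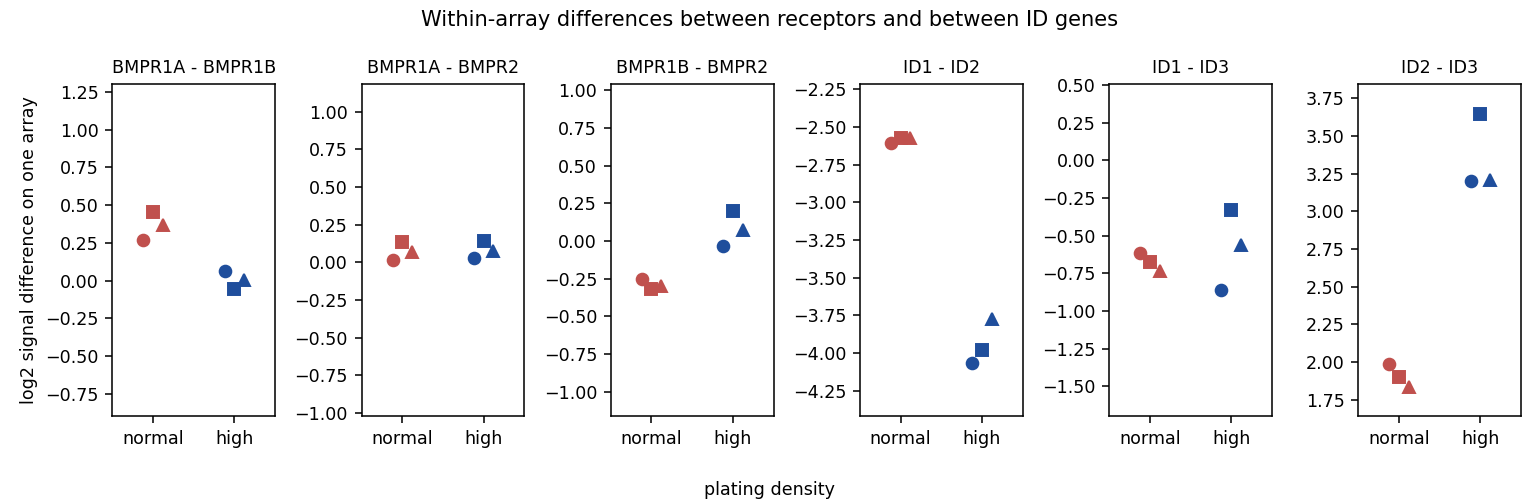
Differences in log2 signal between a pair of genes on the same array, for the receptors and the ID genes, in the normal (red) and high (blue) density cultures, with the marker shape giving the replicate number as in the plot of single genes and the same span on every vertical axis. The densities differ by −1.35 for ID1 minus ID2 and by 1.44 for ID2 minus ID3 without overlap, while ID1 minus ID3 and BMPR1A minus BMPR2 overlap between densities.

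The ID genes were set against each other in the same way. ID1 minus ID2 was between −2.61 and −2.57 on the normal density arrays and between −4.07 and −3.77 on the high density arrays, a shift of −1.35. ID2 minus ID3 was between 1.84 and 1.99 at normal density and between 3.20 and 3.65 at high density, a shift of 1.44. Every high density array lay outside the normal density range for both differences. For ID1 minus ID3 the shift was 0.09 (two-sided exact permutation test, p = 0.7), and the high density range of −0.86 to −0.33 enclosed the normal density range of −0.74 to −0.62.

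The other genes of the pathway were taken from lists by role, 73 genes of which 69 are measured by 71 transcript clusters. The others of the lists are not analysed here. Of the 71 transcript clusters 10 were called, 7 with a rise and 3 with a fall, where 7.49% of the whole table was called, 3.97% with a rise and 3.51% with a fall, and 29 gave no group mean above the background level. The methods' t-test called 9 of the 71, its version for unequal variances 3, SMAD7, GREM1 and ATOH8, and limma's treat 2, GREM1 and ATOH8. The median log2 fold change of the 71 was −0.03, and that of all transcript clusters was 0.02.

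None of the other BMP family ligands was called, 14 transcript clusters of 13 genes, by limma or the methods' t-test. In limma 1 of the 14 had an unadjusted p below 0.05, as had 8645 of all 26773 transcript clusters. Of these, 11 were at or below the background level at both densities. They include the oocyte ligands BMP15, with means of 2.75 and 2.74, and GDF9, with 2.04 and 2.05. Those above it were BMP8B, with a log2 fold change of 0.09 (adjusted p = 0.498 by limma), BMP8A with −0.10 and GDF5 with −0.04.

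Of the other receptors and co-receptors 1 of 11 transcript clusters was called, beside 7.49% of the whole table. RGMB, a membrane co-receptor that binds BMP2 and BMP4, fell from 6.31 ± 0.10 to 5.69 ± 0.13 (SD, n = 3), which is a change of −0.62 on the log2 scale (SE 0.09, adjusted p = 0.0039 by limma). The call was lost if either normal density replicate 1 or high density replicate 3 was left out, with −0.56 in both cases, since the FC threshold was then not reached. NEO1, a receptor for RGM proteins, had means of 8.91 and 8.45, a difference of −0.45 (adjusted p = 0.0029 by limma), below the FC threshold. The type I receptor ACVR1 differed by −0.19 (adjusted p = 0.0828 by limma).

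Among the SMADs and the SMURF ligases 1 of 8 transcript clusters was called, beside 7.49% of the whole table. SMAD7, an inhibitory SMAD that is induced by BMP and TGF-β signals and blocks receptors of both kinds, had signals of 6.12, 6.12 and 6.004 at normal density and 7.09, 6.95 and 6.90 at high density. It rose by 0.90 on the log2 scale (SE 0.08, adjusted p = 0.000372 by limma). SMAD6, the inhibitory SMAD with a preference for the BMP branch, was not called and differed by −0.04 (adjusted p = 0.811 by limma).

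The signal transducers of the BMP branch were lower by less than the FC threshold. SMAD1 had means of 7.46 ± 0.01 and 7.03 ± 0.07 (SD, n = 3), a difference of −0.43 (adjusted p = 0.00485 by limma), and SMAD5 differed by −0.40 (adjusted p = 0.0232 by limma). SMAD9, named after its value was seen, had −0.53 (adjusted p = 0.00181 by limma). Each passed the FDR threshold in limma, as 10.4% of all transcript clusters did with a lower signal at high density. SMAD5 passed it in 9 of the 16 alternative fits. It did not, among others, under the methods' t-test (adjusted p = 0.0773) or its version for unequal variances (0.212). Nor did SMAD5 pass when any one of the normal density cultures was left out (0.0745 to 0.082). The common partner SMAD4 did not pass the FDR threshold, with means of 9.86 and 9.91 (log2 fold change 0.05, adjusted p = 0.664 by limma).

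Antagonists and modulators gave 4 calls among 18 transcript clusters, 3 rises and 1 fall. GREM1, a secreted antagonist that binds BMP2 and BMP4, had signals of 4.71, 4.69 and 4.55 at normal density, near the background level, and 5.94, 5.86 and 6.05 at high density. Its log2 fold change of 1.301 (SE 0.08, adjusted p = 9.17e-05 by limma) was the highest among the rises of these lists. FSTL3, a follistatin-like binder of activins and some BMPs, rose from 9.35 ± 0.07 to 10.09 ± 0.15 (SD, n = 3), which is a change of 0.74 on the log2 scale (adjusted p = 0.00177 by limma).

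FST, follistatin, which binds activins and with lower affinity BMPs, fell from 10.17 ± 0.03 to 9.35 ± 0.17 (SD, n = 3), which is a change of −0.82 on the log2 scale (SE 0.10, adjusted p = 0.0013 by limma). BAMBI, a decoy receptor without a kinase that is itself a target of these signals, rose by 0.68 on the log2 scale (adjusted p = 0.0134 by limma). The BAMBI call was lost with the methods' t-test (adjusted p = 0.0828) and without normal density replicate 1 (log2 fold change 0.64, adjusted p = 0.0555 by limma) or normal density replicate 2 (0.59, adjusted p = 0.0503 by limma). FSTL1 had a log2 fold change of −0.46 (adjusted p = 0.0111 by limma) and NOG, noggin, also named after its value was seen, one of 0.45 (adjusted p = 0.0141 by limma) with both means, 2.70 and 3.16, below the background level. Neither was called.

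**Figure D4:**
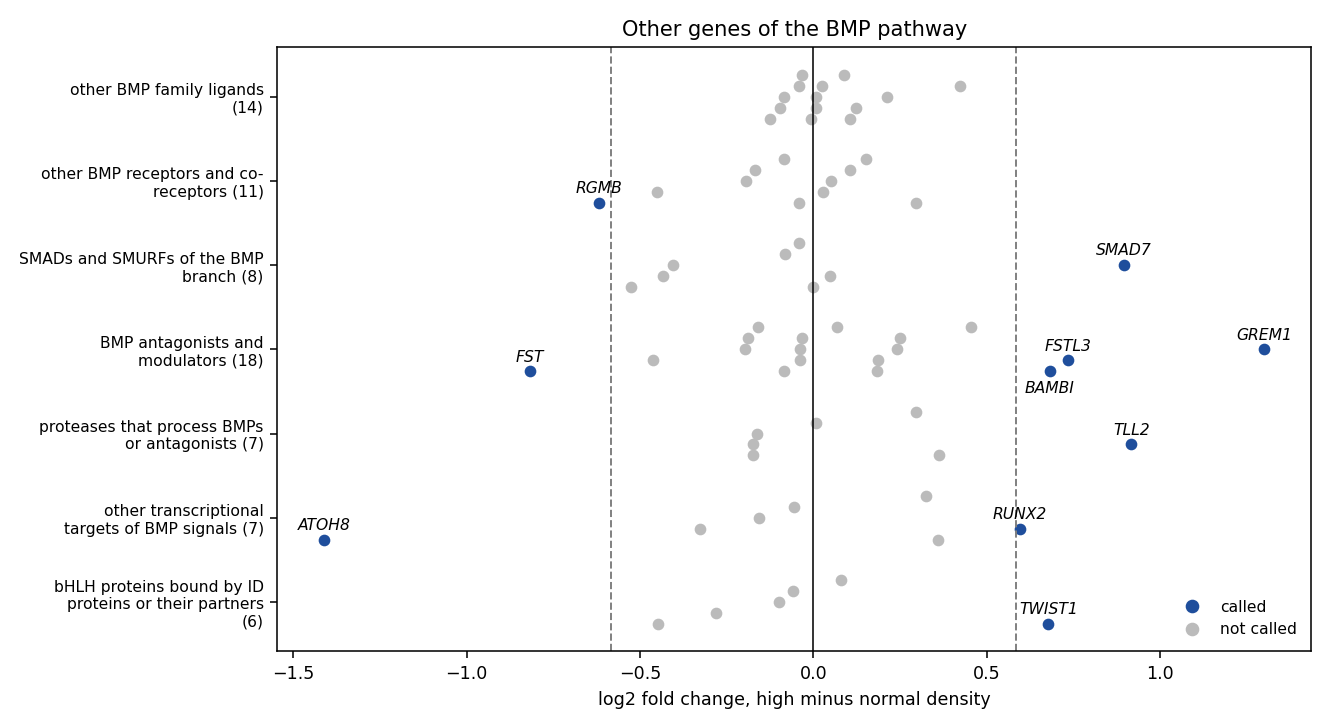
Log2 fold changes, high minus normal density, of the 71 transcript clusters of the other BMP pathway genes, 1 row per list with its number of transcript clusters, points staggered only to separate them. Blue marks the 10 called transcript clusters, which are named, and dashed lines mark the FC threshold of 1.5. GREM1 at 1.301 and ATOH8 at −1.41 lie farthest out.

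Among other known targets of BMP signals 2 of 7 transcript clusters were called, in opposite directions, beside 7.49% of the whole table. At any FC, 3 passed the FDR threshold with a higher and 1 with a lower signal. Of all transcript clusters 8.64% and 10.4% did so. ATOH8, a bHLH factor induced by BMPs in several cell types, had signals of 6.89, 6.86 and 6.73 at normal density and 5.51, 5.25 and 5.49 at high density. Its log2 fold change of −1.41 (SE 0.09, adjusted p = 0.000113 by limma) was the largest fall in these lists. RUNX2, a transcription factor of bone that is also present in luteinizing GC, had means of 8.29 ± 0.06 and 8.89 ± 0.12 (SD, n = 3), a difference of 0.59 (adjusted p = 0.00266 by limma), at the FC threshold. The RUNX2 call was lost after setting the arrays to a common median (0.55), and without normal density replicate 2 (0.57), normal density replicate 3 (0.5844) or high density replicate 1 (0.54). SNAI2, a repressor of epithelial genes, was not called (log2 fold change 0.32, adjusted p = 0.0332 by limma).

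Of the bHLH factors that ID proteins or their partners bind, 1 of 6 transcript clusters was called, beside 7.49% of the whole table. TWIST1 rose from 5.06 ± 0.06 to 5.73 ± 0.20 (SD, n = 3), which is a change of 0.68 on the log2 scale (SE 0.11, adjusted p = 0.00494 by limma). The E proteins, to which ID proteins bind directly, were not called. TCF4 had a log2 fold change of −0.45 (adjusted p = 0.00572 by limma), TCF12 of −0.28 (adjusted p = 0.0314 by limma) and TCF3 of −0.10 (adjusted p = 0.637 by limma).

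Processing enzymes gave 1 call among 7 transcript clusters, beside 7.49% called in the whole table. TLL2, a protease of the family of BMP1, had signals of 6.97, 7.26 and 6.87 at normal density and 8.01, 7.99 and 7.85 at high density, which is a change of 0.92 on the log2 scale (SE 0.11, adjusted p = 0.00148 by limma). BMP1, FURIN and PCSK7 had log2 fold changes of −0.18, −0.16 and −0.17, which did not pass the FDR threshold.

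The labelled cell type was compared with its markers. Of 8 GC markers, 7 were above the background level at each density. FSHR, CYP19A1, INHA, INHBA and FOXL2 fell and HSD17B1 rose, with log2 fold changes between −2.80 for CYP19A1 and 1.26 for HSD17B1 as measured. Both are limited by the background level, as CYP19A1 at high density (3.71) and HSD17B1 at normal density (4.19) lay below it. NR5A2 was higher by 0.41 (adjusted p = 0.00482 by limma), below the FC threshold, with means of 9.37 and 9.78. AMH differed by −0.18 (adjusted p = 0.249 by limma). Markers of GC thus changed in both directions alongside the BMP and ID genes. The summed linear signal of the GC markers was between 11.3 and 11.5 on the log2 scale at normal density and between 10.7 and 10.8 at high density, and the part of this in the changes above was not tested. The sum is weighted to markers with high signals, such as INHBA, with means of 10.21 and 8.84, and NR5A2, which was higher. None of the 6 oocyte and none of the 6 leukocyte markers exceeded the background level at either density, and of the 6 endothelial markers VWF alone did, with means of 5.39 and 5.70. No marker of these lists was called by limma or the methods' t-test. In limma, 1 oocyte, 2 leukocyte and 3 endothelial markers had an unadjusted p below 0.05, as had 8645 of all 26773 transcript clusters. Of the endothelial markers, KDR was higher by 0.48 (adjusted p = 0.0275 by limma). TEK differed by −0.36 (adjusted p = 0.0303 by limma), and both lay below the background level at each density.

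Of 5 markers of theca cells, a source of BMP4 and BMP7 in the follicle, 3 were above the background level at each density. CYP17A1, the defining enzyme of theca androgen synthesis, had means of 2.93 and 2.92, below that level. The summed linear signal of the list was between 8.28 and 8.42 on the log2 scale at normal density and between 9.38 and 9.60 at high density. INSL3 carried this difference with a log2 fold change of 1.82 (SE 0.09, adjusted p = 3.88e-05 by limma), and PTCH1, NR2F2 and GLI1 were not called. PTCH1 was higher by 0.31 and passed the FDR threshold (adjusted p = 0.0284 by limma), while NR2F2 and GLI1 did not (0.652 and 0.593). The part of these markers in the rise of BMP4 was not tested.

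For each called gene of the set, the named transcript clusters with the most similar profile were looked up among 11250 above the background level, by the root mean square difference of log2 signals over the 6 arrays after centring each profile on its mean. For BMP4 these were PLCXD3, with a difference of 0.11, and FAM196A with 0.13. For BMP6 they were SPRYD3 (0.03) and BT.105273 (0.05). ID1 was nearest to LOC788250 (0.02) and to MX1, an interferon-induced GTPase (0.04), and ID3 to RHBDL1 (0.09) and EPHA4, an ephrin receptor (0.10). Neither ID gene was among the 2 listed for the other. As only 2 of 11250 were listed, this does not tell whether their profiles are alike.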

How the data were processed

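RNA of 6 GC cultures, 3 at normal and 3 at high plating density as the labels give them, was measured on arrays. These were processed by the authors in Affymetrix Expression Console with the Robust Multichip Average (RMA) procedure, and the deposited table holds log2 signals that were background corrected, normalized between arrays and summarized per transcript cluster. The genome build is not given in the sources used here. No further normalization was applied, and 82 reporter control rows stayed in the fit. The number of arrays limits the precision.

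The whole table was fitted with lmFit and eBayes of limma 3.58.1, without covariates and under R 4.3.3, with the thresholds of the methods, and p-values were adjusted over all 26773 transcript clusters. The script was tested on simulated data. The analysis of variance of the methods, here the methods' t-test since there are 2 groups, was an alternative. The version for unequal variances was an addition to the methods. The labels do not say whether same-numbered cultures share a GC preparation, and the cultures were not paired in the main fit. The deviations of same-numbered cultures from their group means correlated at 0.05, −0.05 and −0.04. With 3 cultures per group, these values cannot settle whether preparations were shared. HAND2 was matched through its accession in the RefSeq gene table of ARS-UCD2.0. Figures were drawn with matplotlib 3.10.9.

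The genes, pathway lists and marker lists were chosen with earlier results of these data known. Besides the BMP and ID genes, the text names pathway genes that were called, those with the 3 highest signals of a list, the 2 most similar profiles of each called gene, and markers. SMAD6, SMAD9, NOG, BMP15 and GDF9 are not covered by it and were picked with their values in view.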

Additional observations from a re-analysis of the deposited data

How the results depend on the processing

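Of 16 alternative fits, 14 called the same number of BMP and ID genes, 4, with 2 rises and 2 falls. The methods' t-test in its version for unequal variances called 1 of them, BMP4, with 1 rise and 0 falls, where ID1 had an adjusted p of 0.0648 and ID3 of 0.129. Of the pathway lists it then called 3 transcript clusters, 2 rises and 1 fall, and 838 in the whole table. limma's treat, which tests against the FC threshold in place of no change, also called BMP4 alone of the BMP and ID genes (1 rise and 0 falls), and called 2 pathway transcript clusters, 1 rise and 1 fall, and 529 in the whole table. Treat gave adjusted p-values of 0.129 for ID1 and 0.295 for ID3. With each culture left out in turn, the BMP and ID genes called stayed at 4, the pathway lists gave between 8 and 10 calls, and the whole table between 1848 and 2434, with the highest count in the absence of high density replicate 2. With the replicate number as a block 4 BMP and ID genes and 10 pathway transcript clusters were called. Over 36 single genes and all alternatives, 537 of 575 values kept their direction and stayed called or not called, 31 lost a call and 7, none of them called, changed sign. These were BMP7 with the arrays set to a common median (−0.0185) and after a second quantile normalization (−0.0398), and BMP7, BMP8A and TCF3 with a culture left out, where their log2 fold changes lay between −0.093 and 0.114, between −0.273 and 0.0238 and between −0.177 and 0.031. BMP7 turned without normal density replicate 2 or high density replicate 1, BMP8A without normal density replicate 3 or high density replicate 2, and TCF3 without high density replicate 2. The FDR threshold taken alone was lost by 60 of the values and gained by 13. It was met by BMP2 in 12 of the 16 fits, by SMAD5 in 9 and by SNAI2 and TCF12 in 8 each. BMP2 did not meet it without normal density replicate 2 (adjusted p = 0.0639) or replicate 3 (0.0654), in the t-test for unequal variances (0.0512) or with treat (1). The cause of these losses was not tested. The background level would be 4.11 as the 90th and 4.92 as the 99th percentile of the control signals, and at both BMP7 stays below it at either density and BMP4 crosses it. Signals near this level limit what can be said of BMP4 and BMP7. Taking another transcript cluster for a gene was not possible, as each has 1. Between 8 and 9 of the BMP and ID genes had groups that did not overlap in the scaling and leave-one-out settings, and between 10 and 11 of the gene pairs. The share over all transcript clusters in these settings is not given here, so neither count is read as particular to these genes.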
